A study of Mus musculus with 6 samples.

Results

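The genes described here build the contractile actin cytoskeleton and tie it to the cell's adhesions. They are 10 of the 55421 genes counted in 6 mouse retinas, chosen by name and matched by symbol: *Acta2*, *Tagln*, *Myl9*, *Cnn1*, *Cnn2*, *Actn1*, *Flna*, *Vcl*, *Tpm1* and *Tpm2*. RNA of whole retinas was sequenced from mice aged 2 months. The 3 control animals (YR612, YR613, YR615) were Yapfl/fl, and the 3 *Yap* cKO animals (YR711, YR713, YR714) were Yapfl/fl;RaxCreERT2. All 6 animals, controls included, carried the floxed *Yap* allele and received 4-hydroxytamoxifen (4OH-T) at P10 and P14, whereas the Cre was present in the *Yap* cKO animals only. *Rax* drives this Cre in Müller glia and in the non-pigmented epithelium of the ciliary body, so that in a whole retina only some of the cells can lose *Yap*.

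In an actomyosin bundle, myosin II motors pull on actin filaments once their regulatory light chain is phosphorylated. Tropomyosins lie along the filament and govern which proteins bind it, calponins and transgelin associate with it, and alpha-actinin and filamin cross-link filaments. Vinculin couples the filaments to integrins at focal adhesions. Several of these genes are known as targets of the serum response factor SRF, whose cofactors sense free actin, and cytoskeletal tension is itself an input to YAP, which acts on DNA through TEAD factors. In the retina, smooth muscle-type contractile genes are best known from arteriolar muscle and pericytes, while the nonmuscle forms are used widely.

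The question addressed was which of these genes differed between control and *Yap* cKO retinas. *Yap1*, the targeted gene, was measured at 9.48, 9.52 and 9.83 TPM, a level scaled to gene length and library total, in the control retinas and at 3.99, 3.76 and 3.94 TPM in the *Yap* cKO animals, a log2 fold change of -1.36 ± 0.09 (SE, adjusted p = 0.000282 by edgeR's quasi-likelihood test). Between 24261799 and 35067068 fragments per retina were assigned to genes. Of the 10 genes, 9 held enough counts to be tested, and 1 of the 9, *Myl9*, passed at an adjusted p of at most 0.05, with a lower level in *Yap* cKO retinas. Over all 16575 genes tested, 1.49% passed, 0.989% with a lower and 0.501% with a higher level in *Yap* cKO retinas. In these bulk samples, fewer cells of a type and less RNA per cell cannot be told apart. *Myl9* also met the stricter criteria, which also ask for a 1.5-fold change and for 5 TPM on average in 1 group, as did 0.796% of all genes tested.

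Estimated log2 fold changes of the 9 genes ran from -1.09 to 0.15 with a median of -0.40, beside a median of 0.00 over all genes tested. They were below 0 for 8 of the 9 genes and for 49.7% of all genes. The TPM ranges of the groups did not overlap for 5 of the 9 genes, with *Myl9*, *Cnn2*, *Flna* and *Tpm2* lower and *Tpm1* higher in *Yap* cKO retinas. Non-overlapping ranges were found for 24.3% of all genes tested, 9.04% lower and 15.2% higher. An unadjusted p under 0.05 was given to 6 of the 9 genes and to 21.4% of all genes.

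**Figure D1:**
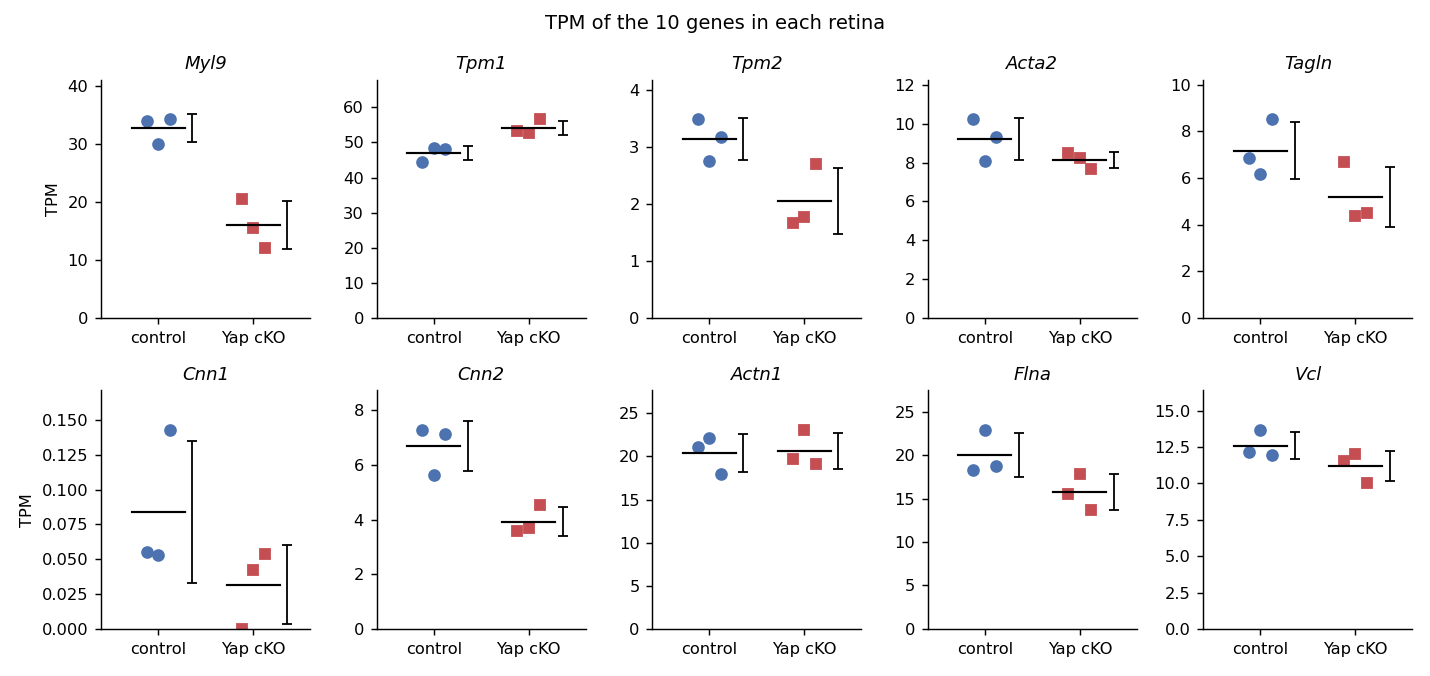
TPM of each of the 10 genes (vertical axis, from 0, with its own scale in each panel) in the 3 control retinas (circles) and the 3 *Yap* cKO retinas (squares), with the group mean (horizontal line) and SD (bar at the right). The groups are apart for *Myl9*, *Cnn2*, *Flna*, *Tpm1* and *Tpm2*, and *Cnn1* stays at or below 0.143 TPM throughout.

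To show what lies around the starts of transcription, the promoter windows of RefSeq (GRCm38.p6) were searched on both strands. Each window runs from 250 bases before to 50 after the RefSeq start. The motifs were the CArG box, the SRF motif made of CC, 6 bases A or T, and GG, and CATTCC, the core of the TEAD motif. A window was found for 9 of the 10 genes, that of *Tagln* being absent from the table. A CArG box stood in 3 of the 9 windows, those of *Myl9*, *Cnn2* and *Vcl*, and in 1.63% of all 32851 windows. The stretches below carry these boxes in capitals, 5′ to 3′ on the gene's strand, and are shown because they belong to *Myl9*, to *Cnn2* and to a gene with a far smaller difference. They lie upstream of the annotated genes at chr2:156775293-156775322, chr10:79988534-79988563 and chr14:20929161-20929190, all on the plus strand.
*Myl9*: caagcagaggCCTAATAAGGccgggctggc
*Cnn2*: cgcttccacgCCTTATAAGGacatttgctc
*Vcl*: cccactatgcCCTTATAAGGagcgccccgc
The box began 161, 56 and 227 bases before the start in *Myl9*, *Cnn2* and *Vcl*. The same 10 letters stood in *Cnn2* and *Vcl*.

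CATTCC, which shares no bases with the CArG boxes found, stood in 4 of the 9 windows, those of *Acta2*, *Flna*, *Tpm1* and *Vcl*, and in 14.7% of all windows. In *Acta2*, *Flna* and *Tpm1* it lay before the RefSeq start but inside the gene as annotated for counting. *Vcl* was the gene of the 9 with both motifs. Its copy, 143 bases before the start at chr14:20929245-20929270, reads on the other strand and appears below as the reverse complement, in capitals.
*Vcl*: ccctcccttgGGAATGggggcggggc
Neither motif was found in the windows of *Actn1*, *Cnn1* and *Tpm2*. A match is a description of the letters and says nothing of binding, and a window without one may have motifs outside it. Only exact matches were counted, so a window without one may also hold versions that depart from these letters.

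*Myl9* (chr2:156775420-156781658, plus strand, GRCm38, 1162 exonic bases) encodes a regulatory light chain of myosin II. It was measured at 34.0, 30.0 and 34.3 TPM in the control retinas YR612, YR613 and YR615. In the *Yap* cKO retinas YR711, YR713 and YR714 it stood at 20.5, 15.6 and 12.1 TPM. Every *Yap* cKO retina was below every control retina, and the *Yap* cKO retinas differed more among themselves (mean 16.1 ± 4.21 TPM, SD, n = 3) than the controls did (32.8 ± 2.40 TPM). Its log2 fold change was -1.09 ± 0.18 (SE), with a 95% confidence interval from -1.49 to -0.70 and an adjusted p of 0.0228 by edgeR's quasi-likelihood test. The call was lost without the control retina YR612 (adjusted p = 0.113), without YR615 (adjusted p = 0.118) and without the *Yap* cKO retina YR713 (adjusted p = 0.113). In these comparisons of 3 retinas with 2, log2 fold changes stayed at -1.04, -1.07 and -1.07, and 0.331%, 0.291% and 0.552% of all genes tested passed. *Myl9* kept the call without YR613, YR714 or YR711, and 0.923% of all genes passed in the last of these. Across all genes tested, log2 fold changes tended to be lower in shorter genes (Spearman's rank correlation 0.39 between log2 fold change and exonic length, a description across genes, which are not independent), and *Myl9* is the shortest of the 10 genes. With offsets corrected for length its log2 fold change was -0.94 and passed (adjusted p = 0.0286 by edgeR's test).

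*Myl9* has close paralogues, *Myl12a* and *Myl12b*, which encode the other regulatory light chains of nonmuscle myosin. The shares of gene families given here were chosen for description after the values had been seen. *Myl9* made up 46.5%, 45.2% and 43.7% of the summed TPM of the 3 genes in the controls and 36.6%, 31.1% and 24.2% in the *Yap* cKO animals. The sum itself was 72.6 ± 6.01 TPM (SD, n = 3) in control retinas, against 52.1 ± 3.38 TPM in *Yap* cKO ones, and its ranges did not overlap. *Myl12a* and *Myl12b* had log2 fold changes of -0.35 (adjusted p = 0.153) and -0.13 (adjusted p = 0.514, edgeR), and neither passed the test.

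*Myl9* was the one gene of the 9 whose log2 CPM had an SD over 0.5 across the 6 retinas (0.65). Among 12208 other genes with a mean of at least 5 TPM in 1 group, the closest in profile were *Gm7694*, a predicted gene on chromosome 1, and *Gpc4*, which encodes a cell surface heparan sulphate proteoglycan. Their centred log2 values differed from those of *Myl9* by 0.06 and 0.10 on average over the 6 retinas. *Gpc4* was at 7.89, 8.31 and 9.57 TPM in control retinas, against 4.84, 4.12 and 2.98 TPM in *Yap* cKO ones, and *Gm7694* at 6.34, 6.56 and 6.49 TPM and at 3.97, 3.003 and 2.22 TPM. Both genes were chosen for this likeness over the same 6 retinas, so their lower levels and the order of their retinas follow from the choice.

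Tropomyosins were represented by a gene that was abundant and one that was scarce. *Tpm1* (chr9:67022590-67049406, minus strand, 6485 exonic bases) had the highest level of the 10 genes, at 44.5, 48.4 and 48.0 TPM in the controls and 53.3, 52.6 and 56.5 TPM in the *Yap* cKO animals. It was the one gene of the 9 with an estimate above 0, and every *Yap* cKO retina was above every control retina. Its log2 fold change was 0.15 ± 0.07 (SE, 95% confidence interval -0.02 to 0.32), which did not pass the test (adjusted p = 0.276, edgeR). With offsets corrected for length the estimate was 0.09 (adjusted p = 0.528 by edgeR's test).

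*Tpm2* (chr4:43514711-43523765, minus strand, 2909 exonic bases), a tropomyosin best known from muscle, was at 3.49, 2.76 and 3.18 TPM in the controls and at 1.67, 1.78 and 2.72 TPM in the *Yap* cKO animals. YR714 lay just under the lowest control retina and YR711 and YR713 far below it. The estimated log2 fold change of -0.67 ± 0.23 (SE, 95% confidence interval -1.20 to -0.15) did not pass (adjusted p = 0.154), but did without YR714 (log2 fold change -0.94, adjusted p = 0.0429 by edgeR's test, with 5.89% of all genes passing). Summed over *Tpm1* to *Tpm4*, tropomyosins reached 114 ± 2.09 TPM in control retinas, against 120 ± 5.07 TPM in *Yap* cKO ones (SD, n = 3), with overlapping ranges. Counts per gene do not separate the muscle and nonmuscle transcripts of *Tpm1*, *Actn1* and *Vcl*.

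**Figure D2:**
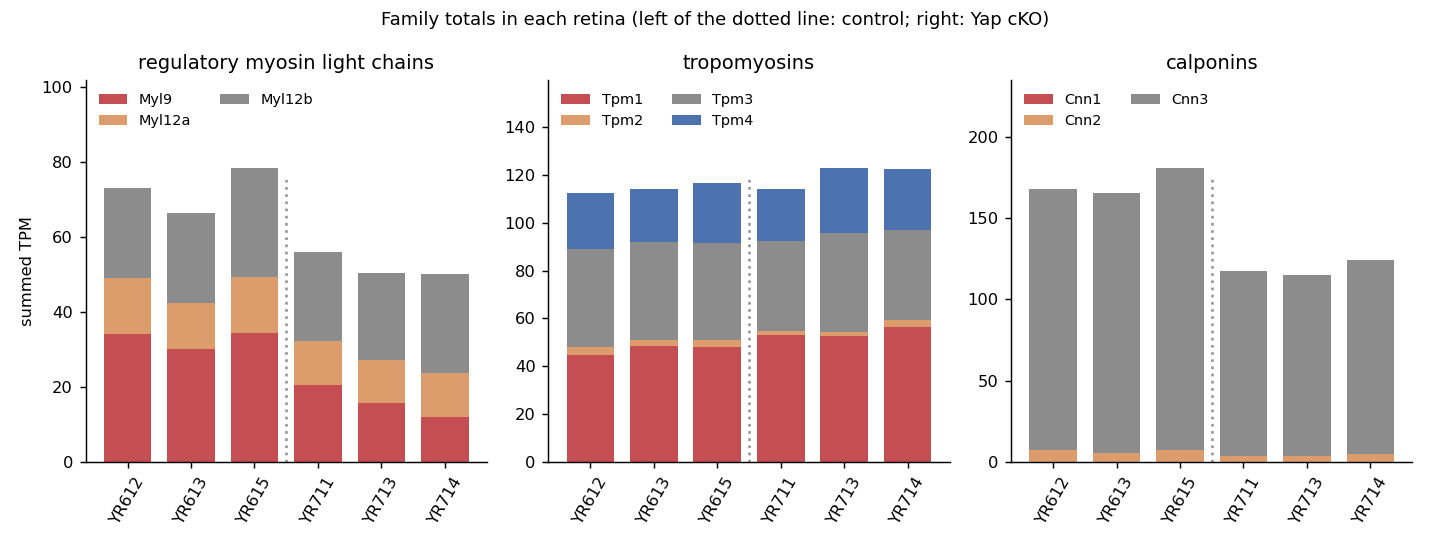
Summed TPM (vertical axis, from 0) of the regulatory myosin light chains, tropomyosins and calponins in each retina, stacked by gene, with control retinas to the left of the dotted line and *Yap* cKO retinas to the right. The *Myl9* segment shrinks from 30.0 to 34.3 TPM in control retinas to 12.1 to 20.5 TPM in *Yap* cKO retinas, the tropomyosin bars reach similar heights, and the calponin bars are mostly *Cnn3*.

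*Acta2* (chr19:34241090-34255590, minus strand, 2196 exonic bases), which encodes alpha smooth muscle actin, was at 10.2, 8.11 and 9.30 TPM in the controls and at 8.48, 8.22 and 7.66 TPM in the *Yap* cKO animals. The groups overlapped, since YR613 was below YR711 and YR713. On the log2 scale the fold change was -0.24 ± 0.14 (SE, 95% confidence interval -0.56 to 0.08, adjusted p = 0.346, edgeR). *Acta2* supplied 0.945% ± 0.062 of the summed TPM of the 6 actin genes in control and 0.922% ± 0.059 in *Yap* cKO retinas (SD, n = 3), most of the rest being *Actb* and *Actg1*. Actin genes are near copies of each other in their coding sequence, so fragments that fit several of them can be missing from these counts.

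*Tagln* (chr9:45929619-45936058, minus strand, 1988 exonic bases), a calponin-related protein of smooth muscle, was at 6.86, 6.17 and 8.51 TPM in the controls and at 6.69, 4.39 and 4.49 TPM in the *Yap* cKO animals. YR711 lay within the control range and YR713 and YR714 below it. The log2 fold change was -0.54 ± 0.21 (SE, 95% confidence interval -1.002 to -0.08, adjusted p = 0.184, edgeR). Its exons share bases with *Pcsk7* and *Gm48529* on the opposite strand, and the counting used strand.

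The calponins spanned the whole range of abundance. *Cnn1* (chr9:22099216-22109630, plus strand, 2736 exonic bases), the calponin of differentiated smooth muscle, had 1, 1 and 3 fragments in the controls and 0, 1 and 1 in the *Yap* cKO animals. Both groups were thus at or under 3 fragments, no fold change is given, and the gene was not tested. The count of 0 in YR711 allows up to 0.172 TPM, counting error alone being considered.

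*Cnn2* (chr10:79988584-79996062, plus strand, 2460 exonic bases), a calponin found in smooth muscle and many other cells, was at 7.27, 5.63 and 7.14 TPM in the controls and at 3.56, 3.69 and 4.52 TPM in the *Yap* cKO animals. Every *Yap* cKO retina was below every control retina. Its log2 fold change of -0.83 ± 0.18 (SE, 95% confidence interval -1.23 to -0.42) came close to the threshold without reaching it (adjusted p = 0.0602, edgeR). It passed in 6 of 16 alternative comparisons, among them the DESeq2 Wald test (adjusted p = 0.00971), by which 5.38% of all genes passed, edgeR's likelihood ratio test (adjusted p = 0.00271), by which 6.18% did, and the edgeR test with no filter on low counts (adjusted p = 0.000445), where 6.19% did. It also passed without the control retina YR613 (adjusted p = 0.0168) or without the *Yap* cKO retina YR714 (adjusted p = 0.0264), where 8.84% and 5.89% of all genes passed by edgeR's test.

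The third calponin, *Cnn3*, held 96.1% ± 0.47 of the calponin TPM in control and 96.7% ± 0.33 in *Yap* cKO retinas (SD, n = 3). It was at 160, 160 and 173 TPM in the controls and 114, 111 and 119 TPM in the *Yap* cKO animals. The estimated log2 fold change was -0.58 ± 0.08 (SE, adjusted p = 0.00940, edgeR), the lower level passing the test but not the minimum fold change. Without the control retina YR612 or YR615, or without YR713, it did not pass.

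Of the cross-linkers, *Actn1* (chr12:80167547-80260371, minus strand, 5533 exonic bases), an alpha-actinin of stress fibres and adhesions, was at 21.1, 22.2 and 17.9 TPM in the controls and at 19.7, 23.1 and 19.1 TPM in the *Yap* cKO animals. The ranges of the groups overlapped widely. On the log2 scale the fold change of -0.04 ± 0.11 (SE) had a 95% confidence interval from -0.29 to 0.20 (adjusted p = 0.846, edgeR).

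*Flna* (chrX:74223461-74249820, minus strand, 9400 exonic bases), which encodes the filamin that cross-links cortical actin, was at 18.3, 22.9 and 18.7 TPM in the controls and at 15.5, 17.9 and 13.7 TPM in the *Yap* cKO animals. The groups did not overlap, though the highest *Yap* cKO retina, YR713, lay just under the lowest control retina. The log2 fold change was -0.40 ± 0.11 (SE, 95% confidence interval -0.65 to -0.16) and did not pass (adjusted p = 0.0997, edgeR). With offsets corrected for length, *Flna* had a log2 fold change of -0.52 and passed (adjusted p = 0.0101, with 2.76% of all genes passing by edgeR's test). Besides *Myl9* and *Flna*, *Cnn2* passed with this correction, at a log2 fold change of -0.73. *Acta2* (-0.13), *Tagln* (-0.42), *Tpm2* (-0.60), *Vcl* (-0.33), *Actn1* (-0.08) and *Tpm1* (0.09) did not.

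*Flnc*, a paralogue of *Flna* and the filamin of striated muscle, was scarce, at 0.887, 0.9001 and 0.872 TPM in control retinas, against 0.466, 0.538 and 0.420 TPM in *Yap* cKO ones. It passed the test with a log2 fold change of -0.95 ± 0.18 (SE, adjusted p = 0.0392, edgeR) and was under the minimum of 5 TPM. Without YR612, YR615, YR711 or YR713 it did not pass.

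*Vcl* (chr14:20929398-21033676, plus strand, 8191 exonic bases), which encodes vinculin, was at 12.2, 13.7 and 11.9 TPM in the controls and at 11.5, 12.02 and 10.02 TPM in the *Yap* cKO animals. YR713 lay just above the lowest control retina, so that the groups overlapped. Its log2 fold change was -0.23 ± 0.09 (SE, 95% confidence interval -0.44 to -0.02, adjusted p = 0.204, edgeR). *Vcl* shares 2090 exonic bases with *Ap3m1* on the opposite strand, and the counting used strand.

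**Figure D3:**
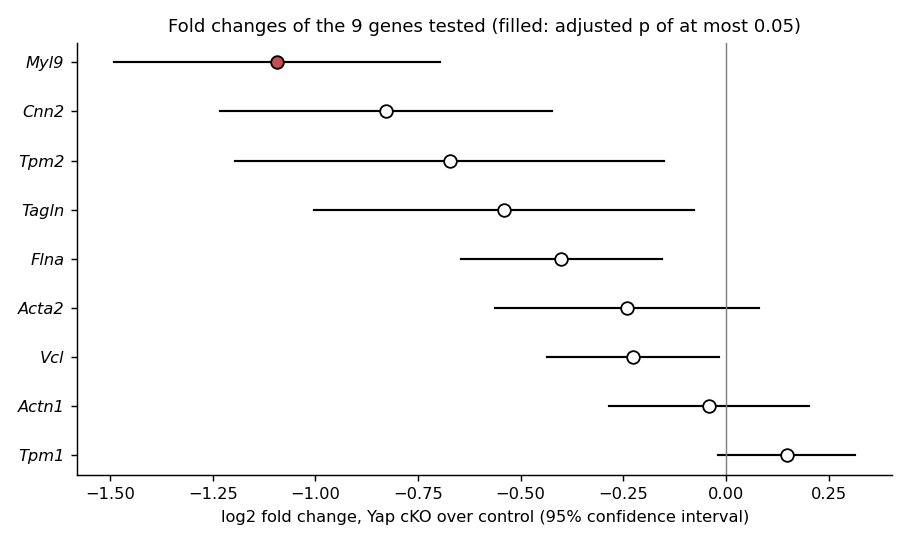
Log2 fold change of *Yap* cKO over control (horizontal axis) for the 9 genes tested, with 95% confidence intervals that are not adjusted for the number of genes. *Myl9*, the filled point at -1.09, is the one that passed the test, and *Tpm1* is the one to the right of 0, at 0.15.

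Over all 6 retinas the mean levels, per length, fell in the order *Tpm1* (50.6 TPM), *Myl9* (24.4), *Actn1* (20.5), *Flna* (17.8), *Vcl* (11.9), *Acta2* (8.66), *Tagln* (6.19), *Cnn2* (5.30), *Tpm2* (2.60) and *Cnn1* (0.058). The groups differed in this order, *Myl9* (32.8 TPM) standing above *Actn1* (20.4 TPM) in control retinas and below it in *Yap* cKO ones (16.1 against 20.6 TPM). Over all 6 retinas, ranges of neighbours met from *Myl9* through *Actn1* to *Flna* and from *Vcl* through *Acta2* and *Tagln* to *Cnn2*. *Tpm1*, *Tpm2* and *Cnn1* were apart from their neighbours in every retina. In *Myl9* the width of the range, from 12.1 to 34.3 TPM, came from the difference between the groups, and in *Actn1*, from 17.9 to 23.1 TPM, from retinas of either group.

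The surrounding machinery was read from lists of related genes. Over all genes tested, 1.49% passed edgeR's quasi-likelihood test, 5.38% the DESeq2 Wald test and 6.18% edgeR's likelihood ratio test. With limma-voom 272 of the 16575 genes passed, and 21.4% had an unadjusted p under 0.05 by the quasi-likelihood test. Among other smooth muscle contractile genes, 0 of the 8 tested of 12 listed passed edgeR's quasi-likelihood test, and 0 by DESeq2, edgeR's likelihood ratio test or limma-voom, 1 had an unadjusted p under 0.05, and the median log2 fold change was -0.03. *Mylk*, the kinase that phosphorylates the regulatory light chain, had 35.5 ± 6.40 TPM in control retinas, against 40.4 ± 6.196 TPM in *Yap* cKO ones (SD, n = 3). *Synm*, an intermediate filament gene, had 27.2 ± 1.83 and 28.5 ± 3.34 TPM. Of the paralogues of the 10 genes, 2 of 17 tested passed, *Cnn3* and *Flnc*, both lower and by each of the 4 tests, 7 had an unadjusted p under 0.05, 14 estimates were below 0, and the median was -0.15.

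Of the genes for nonmuscle myosin II and its regulators, 0 of 17 passed by any of these 4 tests, and the median log2 fold change was 0.08. An unadjusted p under 0.05 was given to 4 of them (23.5%), near the 21.4% of all genes. *Cfl1*, which encodes the actin-severing cofilin, had 467 ± 13.0 TPM in control retinas, against 431 ± 22.4 TPM in *Yap* cKO ones, and *Ppp1cb*, a catalytic subunit of myosin phosphatase, had 115 ± 19.3 and 126 ± 8.90 TPM (SD, n = 3). Neither passed the test. Of the adaptors and kinases of focal adhesions, 0 of 26 passed by edgeR's quasi-likelihood test, DESeq2 or limma-voom and 1, *Fblim1*, by the likelihood ratio test, 3 had an unadjusted p under 0.05, and the median was 0.00. The most abundant were *Csrp1*, a LIM protein of actin bundles, with 96.0 ± 10.3 TPM in control retinas, against 119 ± 6.87 TPM in *Yap* cKO ones, and *Ilk*, the integrin-linked kinase, with 101 ± 1.68 and 97.9 ± 7.57 TPM.

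Of SRF and its cofactors, 0 of the 6 tested of 7 passed by any of the 4 tests, 2 had an unadjusted p under 0.05, and the median log2 fold change was 0.09. *Srf* itself was at 19.3 ± 2.15 TPM in control retinas, against 19.4 ± 1.83 TPM in *Yap* cKO ones, a log2 fold change of -0.05 ± 0.13 (SE, adjusted p = 0.840, edgeR). *Elk1*, a cofactor of SRF, was at 19.4 ± 2.16 and 24.9 ± 1.28 TPM, a log2 fold change of 0.30 ± 0.10 (SE, adjusted p = 0.139, edgeR).

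**Figure D4:**
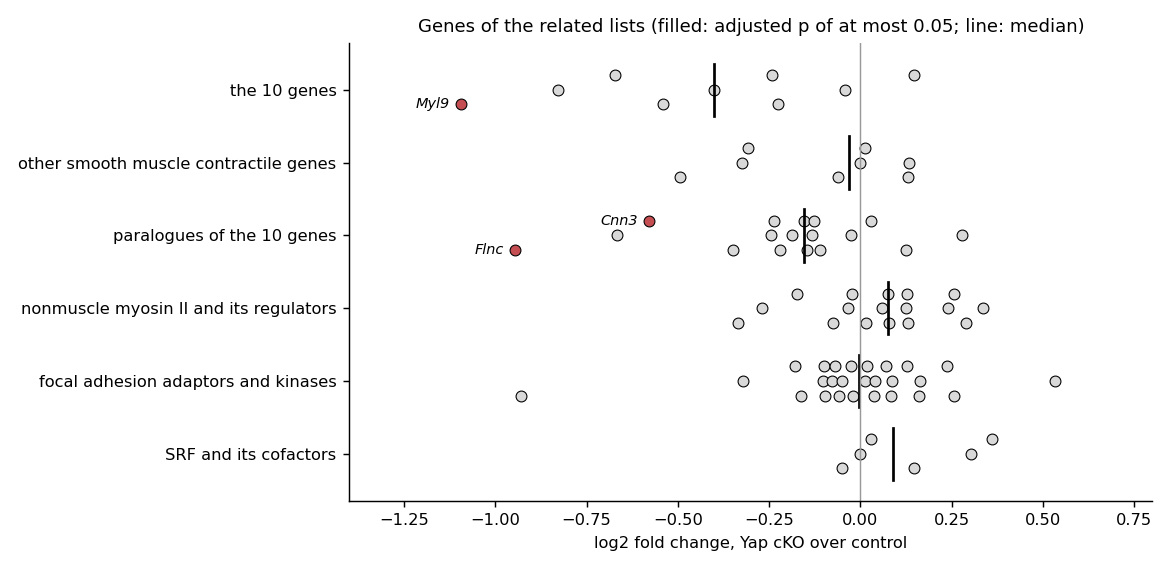
Log2 fold change of *Yap* cKO over control (horizontal axis) for each gene tested in the 10-gene set and the 5 related lists, with the median of each list as a vertical line. Filled points are *Myl9*, *Cnn3* and *Flnc*, all to the left of 0, and the medians of the lists other than the 10 genes lie between -0.15 and 0.09.

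Markers of the cell types that could carry these genes were read beside them, with the same 4 tests. Of all genes, 1.49% passed by the quasi-likelihood test, 5.38% by DESeq2 and 6.18% by the likelihood ratio test. By limma-voom 272 of 16575 did, and 21.4% had an unadjusted p under 0.05. By each test, 0 of 10 pericyte and 0 of 10 endothelial markers passed, with 3 and 2 at an unadjusted p under 0.05 and median log2 fold changes of -0.12 and -0.02. The summed TPM of the pericyte markers was 2347 to 2539 in control retinas, against 2376 to 2542 in *Yap* cKO ones, and 251 to 282, against 227 to 251, without *Vtn*, singled out because it made up most of the sum. Endothelial markers summed to 248 to 265 TPM in the controls and 224 to 286 TPM in the *Yap* cKO animals. Estimates were below 0 for 8 of the 10 pericyte markers and 5 of the 10 endothelial markers, and without *Vtn* the pericyte sums of the groups barely overlapped (250.6 TPM in YR613, 250.9 TPM in YR711). Most of this remainder was *Cox4i2*, at 178, 150 and 168 TPM in the controls and 137, 126 and 149 TPM in the *Yap* cKO animals. The pericyte markers other than *Vtn* and *Cox4i2* summed to overlapping ranges, with YR711 highest and YR714 lowest of all retinas. Of 7 fibroblast markers tested 1 passed by each test, lower, 1 had an unadjusted p under 0.05, and the 10 listed summed to 25.9 to 30.8 and 21.1 to 26.8 TPM.

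Of 10 Müller glia markers 0 passed by the quasi-likelihood test and 1 by each of the other tests, 4 had an unadjusted p under 0.05, the median was -0.11, and the sums were 5775 to 6231 and 5357 to 6032 TPM. Of 7 rod markers, which were abundant, with sums of 27452 to 30096 and 28122 to 29863 TPM, as the label of retina requires, 0 passed by any of the 4 tests and 0 had an unadjusted p under 0.05 (median -0.05). Of 6 astrocyte markers 1 passed by each test, lower in *Yap* cKO retinas, and 3 had an unadjusted p under 0.05, with sums of 185 to 187 and 151 to 172 TPM. The glial and rod sums of the groups overlapped, and those of the astrocyte list did not. *Aqp4* of the astrocyte list is also in the Müller glia list. It supplied 71.5, 95.5 and 82.2 TPM in the controls and 83.0, 65.3 and 55.2 TPM in the *Yap* cKO animals. Without *Aqp4* the astrocyte sums of the groups overlapped as well.

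Summed levels of ciliary and melanin pigment cell markers were lower in every *Yap* cKO retina than in every control retina, as *Myl9* was. Of 8 ciliary non-pigmented epithelium markers tested, 2 passed lower and 1 passed higher by the quasi-likelihood test, 5 passed by DESeq2, 7 by the likelihood ratio test and 3 by limma-voom. An unadjusted p under 0.05 was given to 7 of them, the median was -0.87, and the sum of the 10 listed was 129 to 147 TPM in the controls and 41.6, 69.9 and 48.4 TPM in YR711, YR713 and YR714. Of 8 melanin pigment cell markers 1 passed, lower, by the quasi-likelihood test, 2 by DESeq2, 4 by the likelihood ratio test and 1 by limma-voom, 5 had an unadjusted p under 0.05, the median was -0.97, and the sum was 86.4 to 93.6 TPM in the controls and 21.7, 62.2 and 36.04 TPM in the *Yap* cKO animals. Of 8 retinal pigment epithelium markers 0 passed by the quasi-likelihood test and 1 by each of the others, 2 had an unadjusted p under 0.05, the median was -0.71, and the sum was 1582 to 1672 TPM in the controls and 980, 1099 and 1515 TPM in the *Yap* cKO animals. Most of the control sum came from *Rlbp1*, which is also in the Müller glia list. Without it the sum was 674 to 739 TPM in the controls and 205, 381 and 727 TPM in the *Yap* cKO animals, so that YR714 lay within the control range. None of these 3 sums had the order of *Myl9* within the *Yap* cKO retinas, where YR711 was highest and YR714 lowest. Of the sums of whole marker lists, only the endothelial and astrocyte ones had it. They were 286, 249 and 224 TPM and 172, 164 and 151 TPM in YR711, YR713 and YR714. In each, 1 gene carried the order, *Kdr* of the endothelial list (141, 94.8 and 78.2 TPM) and *Aqp4* of the astrocyte list (83.0, 65.3 and 55.2 TPM). Without that gene neither sum kept it. The pericyte markers other than *Vtn* and *Cox4i2* summed to the order of *Myl9* as well. The order of 3 retinas is a description, and its cause was not tested.

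Lens markers, 3 of 8 tested with 0 passing by any test and 3 at an unadjusted p under 0.05, summed to 4.14 to 19.8 TPM in the controls, with the highest value in YR615, and to 1.97 to 4.73 TPM in the *Yap* cKO animals. Striated muscle markers, 2 of 8 tested with 0 passing by any test and 0 at an unadjusted p under 0.05, summed to 5.89 to 7.05 and 5.58 to 6.64 TPM. Of these, 3 were under 0.1 TPM in every retina, as was *Opn5* of the ciliary list, and *Lim2* of the lens was at 0 throughout. The part of these cell types in the levels of *Myl9* and of the other genes was not tested.

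**Figure D5:**
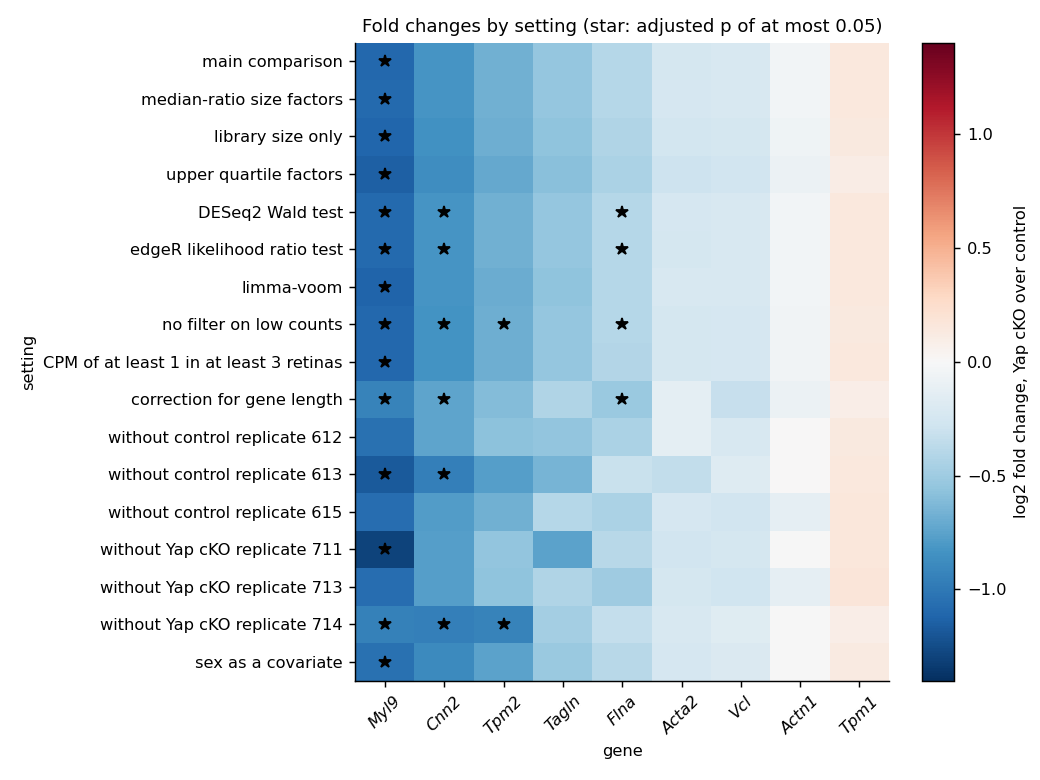
Log2 fold change of *Yap* cKO over control (colour) of the 9 genes tested (columns) in the main comparison and 16 alternatives (rows), with a star where the adjusted p was at most 0.05. The *Myl9* column is starred in the main comparison and 13 alternatives, *Cnn2* in 6, *Flna* in 4 and *Tpm2* in 2.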

How the data were processed

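The authors aligned stranded paired-end reads of polyadenylated RNA to GRCm38 with STAR 2.7.3a and counted fragments on exons with featureCounts 1.6.2 (strand setting 2, annotation release 98 in the header). The deposited values are counts per gene without normalization, 1 column per retina, beside an exonic length. TPM was computed here from counts and lengths. Genes were filtered with filterByExpr, normalized by TMM (factors 0.986 to 1.02) and compared between the groups with edgeR 4.0.16 (quasi-likelihood, R 4.3.3), p-values being adjusted over 16575 genes by the Benjamini-Hochberg method, and an adjusted p of at most 0.05 passed. DESeq2 1.42.0, limma 3.58.1 and other settings were alternatives. Symbols came from the reference annotation (55154 genes), and member coordinates were the same in it. No exact test of a single gene was run, since 3 retinas against 3 cannot give p under 0.1. The steps were tested on simulated data.

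The 10 genes, the lists and the tests were chosen with earlier results of these data known. All 10 genes were named, with every gene of a related list that passed, otherwise its 2 most abundant genes, and the 2 closest in profile to a gene with an SD over 0.5. Marker lists were given as counts, medians and sums. Replicates are separate animals by the study's methods. The labels give no sex or litter. A paralogue and a marker of the lists are not reported here.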

Additional observations from a re-analysis of the deposited data

How the results depend on the processing

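With 16 alternatives for each of 9 genes, 127 of 144 estimates kept their direction and their side of the threshold, 12 newly passed, 3 lost the call and 2 changed sign. The latter were *Actn1* without the control retina YR612 (0.0072) or YR613 (0.0014), its log2 fold change ranging from -0.13 to 0.0072 with each retina left out in turn. Of the 9 genes, 3 passed with the DESeq2 Wald test, with the edgeR likelihood ratio test and with the correction for gene length, and 4 with no filter on low counts. The first 3 of these settings passed 892, 1025 and 458 of 16575 genes, against 247 in the main comparison. With no filter 1865 of a larger set of 30129 genes passed. With the minimums for fold change and TPM, 132 of all genes passed, and with sex as a covariate, added after seeing the data and read from sex-linked genes, 151. By those genes the groups were unbalanced, with 1 female and 2 male controls and 2 female and 1 male *Yap* cKO animals. *Myl9* kept the call with this covariate (adjusted p = 0.0369 by edgeR's test). With each retina left out in turn, 0 to 3 of the 9 genes and 49 to 1490 of all genes passed, the lowest without YR615 and the highest without YR613. The cause of these shifts was not tested. Of the related lists, *Rock2*, *Arhgap35*, *Mrtfb* and *Myl12a* also passed without YR613, and *Myh14*, *Mrtfb*, *Lpp* and *Tagln2* without YR714. No paired analysis was possible because the replicate numbers are animal codes that the groups do not share. Depth limits *Cnn1* most, with at most 3 fragments per retina, and next *Tpm2*, with 31 to 71.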
